A study of Mus musculus with 6 samples.

Results

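The anoctamins, or TMEM16 proteins, are a family of membrane proteins encoded by Ano1 to Ano10 in the mouse, and their transcripts were read here in TM3 cells exposed to 4-nitrophenol (PNP). The 10 genes were found through the transcript accessions of the array's probes, which gave 16 probes out of 33767 that could be named and 10 genes out of 23462. The family was picked because Ano1 was among the genes with lower signal after PNP, that is, it was chosen by the measured Ano1 signal of these same arrays, whose difference is given below as a description with no test. The treated group was 3 samples kept for 24 h with 10 µM PNP, a breakdown product of organophosphate insecticides that also occurs in vehicle exhaust. The control group was 3 samples kept for 24 h at 0 µM. All 6 samples were total RNA of TM3, a single male mouse testicular somatic cell line derived from Leydig cells, the steroid-producing cells of the testis, and the sources used here name no genetic change. Each sample had its own 1-channel Agilent array, and the 6 arrays lay on 1 slide read in 1 scan. The 3 controls and PNP replicate 1 lay in the first row of the slide, and PNP replicates 2 and 3 in the second. Treatment and slide row therefore largely coincide in every comparison below. Whether replicates were grown as separate cultures is not stated, so the spread between them may be technical.

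Anoctamins were first known as chloride channels that open when calcium rises inside the cell, the role of ANO1 and ANO2. Several other members, with ANO6 the best known, are instead scramblases, which let phospholipids pass between the leaflets of a membrane and so expose phosphatidylserine at the cell surface. Other members sit mainly in internal membranes, where ANO8 and ANO10 are linked to contacts between the endoplasmic reticulum and the plasma membrane or endosomes.

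In TM3 cells, 4 of the 10 genes gave a signal well above background on every array: Ano1, Ano6, Ano8 and Ano10. The other 6, Ano2, Ano3, Ano4, Ano5, Ano7 and Ano9, did not do so in either group. Ano1 had 338, 1202 and 319 units of processed signal on PNP replicates 1, 2 and 3, against 908, 631 and 758 units on control replicates 1, 2 and 3. PNP replicates 1 and 3 lay below every control and PNP replicate 2 lay above every control. The scanner software had marked the spot of PNP replicate 2 as non-uniform, and the groups overlap with that spot and do not without it. In such bulk samples, fewer cells with the transcript and less of it per cell cannot be told apart. Ano6, Ano8 and Ano10 had PNP and control signals that overlapped.

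The sequences just upstream of the detected genes are shown because they held more CpG, and more G and C, than those of the undetected genes. They are the 250 bases before a transcription start, from RefSeq on build GRCm38.p6, and the capitals mark GC boxes (GGGCGG on either strand, the letters bound by SP1-type factors). The array was designed on another build, so no probe is placed on these coordinates.
Ano1 (chr7:144738574-144738823, minus strand): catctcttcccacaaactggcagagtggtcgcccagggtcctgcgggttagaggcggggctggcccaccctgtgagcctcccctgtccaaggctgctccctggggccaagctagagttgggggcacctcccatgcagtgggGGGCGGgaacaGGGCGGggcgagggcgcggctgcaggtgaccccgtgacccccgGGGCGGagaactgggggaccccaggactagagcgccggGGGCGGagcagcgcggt
Ano6 (chr15:95790593-95790842, plus strand): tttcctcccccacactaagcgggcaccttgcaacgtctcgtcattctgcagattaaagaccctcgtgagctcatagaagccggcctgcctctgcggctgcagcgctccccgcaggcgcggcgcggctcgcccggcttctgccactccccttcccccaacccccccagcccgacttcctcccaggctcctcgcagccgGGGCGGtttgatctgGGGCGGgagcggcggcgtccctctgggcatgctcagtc
Ano10 (chr9:122294424-122294673, minus strand): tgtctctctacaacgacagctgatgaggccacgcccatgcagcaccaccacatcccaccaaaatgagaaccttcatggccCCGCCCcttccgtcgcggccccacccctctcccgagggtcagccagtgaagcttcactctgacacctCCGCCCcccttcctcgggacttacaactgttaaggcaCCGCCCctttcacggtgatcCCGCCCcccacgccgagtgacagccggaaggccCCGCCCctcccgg
These are the only windows the RefSeq table holds for those 3 genes, and a gene can have other starts.

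The table held 11 windows for 8 of the 10 genes, with none for Ano8 and Ano9. The Ano1, Ano6 and Ano10 windows held 16, 22 and 17 CpG dinucleotides, while the 8 windows of the 5 undetected genes held from 2 to 13. Their G and C content was 72.0%, 68.4% and 65.2%, against 43.6% to 63.6% in the undetected genes. Relative to the CpG expected from that content the groups overlapped. The ratio was 0.503, 0.785 and 0.736 for Ano1, Ano6 and Ano10, against 0.114 to 0.56, with Ano5 highest. All 3 windows of the detected genes held a GC box, with 4 copies for Ano1, 2 for Ano6 and 5 for Ano10, where overlapping copies each count. Only 1 of the 8 windows of the undetected genes held one, that of a start of Ano2. A GC box was present in 32.7% of all 32851 windows. The family followed a difference seen over the whole array: windows of other named genes above background had a median of 14 CpG and 51.7% held a GC box, while windows of named genes not above background had a median of 3 CpG and 22% held one. The site of SF-1, the NR5A1 factor of steroid-producing cells (CAAGGTCA), the cAMP response element (TGACGTCA) and the AP-1 site (TGANTCA) were in 0 of the 11 windows, against 1.33%, 1.55% and 6.75% of all windows. The core bound by the aryl hydrocarbon receptor (GCGTG, either strand) was in 2 of the 11, those of Ano10 and of a start of Ano2, against 28.2% of all windows. A match or its absence describes these letters only.

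**Figure D1:**
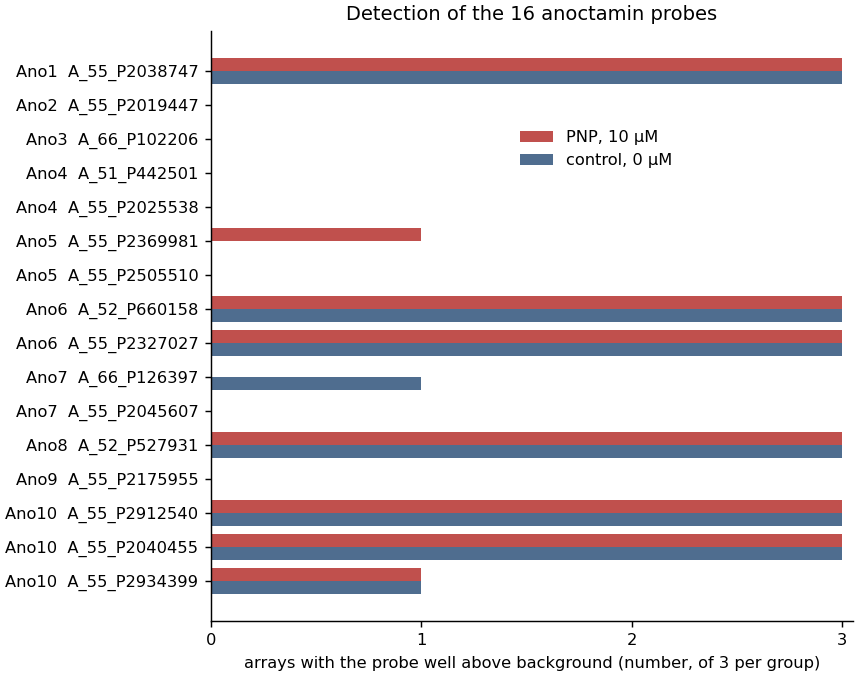
Number of arrays, of 3 per group, on which each of the 16 anoctamin probes was well above background, with PNP bars above control bars. Ano1, both Ano6 probes, Ano8 and 2 of 3 Ano10 probes reached 3 in both groups, and the other 10 probes reached at most 1 in either group.

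Detection, the scanner software's mark for a signal well above local background, was read on each of the 96 spots of these 16 probes, and 40 spots had it. Of the 16 probes, 6 had it on all arrays and 7 on none. Over the whole array 58.9% of probes and 64.1% of named genes were detected on all 3 arrays of a group, beside which stand the 4 of 10 anoctamins. A probe without the mark gives only an upper bound on its signal, and a transcript form that a probe does not cover would be missed.

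Among the channel members, Ano2, the calcium-activated chloride channel of olfactory and retinal neurons, had 59.6, 52.0 and 54.4 units on PNP replicates 1 to 3, against 84.4, 59.8 and 31.7 units on control replicates 1 to 3, all without the mark. The least signal that carried the mark ranged from 112 to 118 units on PNP arrays and from 119 to 122 units on control arrays. Ano3, known from neurons and human dystonia, had from 24.6 to 25.2 units with PNP and from 24.6 to 25.1 units in controls. These values sat at the floor that the scanner software sets for dim spots, and so did both Ano4 probes.

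Ano5, which is expressed in muscle and mutated in human limb-girdle muscular dystrophy, was at that floor on all arrays with probe A_55_P2505510. Its other probe, A_55_P2369981, had 30.3, 232 and 26.1 units with PNP, against 26.5, 24.7 and 26.2 units in controls. PNP replicate 2 alone was well above background there, its spot was not marked as an outlier, and the second Ano5 probe had 26.0 units on the same array. Ano7, known from human prostate, had 52.7, 37.0 and 47.6 units with PNP on probe A_66_P126397, against 58.3, 157 and 47.7 units in controls, so control replicate 2 alone was well above background. The other Ano7 probe, A_55_P2045607, had 39.8, 34.3 and 69.0 units with PNP, against 46.5, 53.7 and 30.3 units in controls, none with the mark. Ano9, a member known mainly from epithelial tissues, stayed between 24.2 and 61.3 units with PNP and between 24.0 and 55.4 units in controls. None of these genes entered the fit described next, since each lacked the mark on some array of both groups.

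For the detected genes, signals were put on the log2 scale and each array's 75th percentile was subtracted, which gives the scaled log2 signal used from here on. Each group's values are given as mean ± SD. The scanner software also marks spots with uneven pixels or spots far from their kind as outliers, and these were left out of the fit over all genes. Such spots were 12.3%, 13.2% and 11.5% of the spots on PNP replicates 1, 2 and 3, against 9.07%, 7.66% and 6.53% on control replicates 1, 2 and 3, so they were more frequent on every PNP array. Of the 36 spots of the 6 detected anoctamin probes, 9 were marked. That left Ano1, Ano6 and Ano10 in the fit and kept Ano8 out of it.

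**Figure D2:**
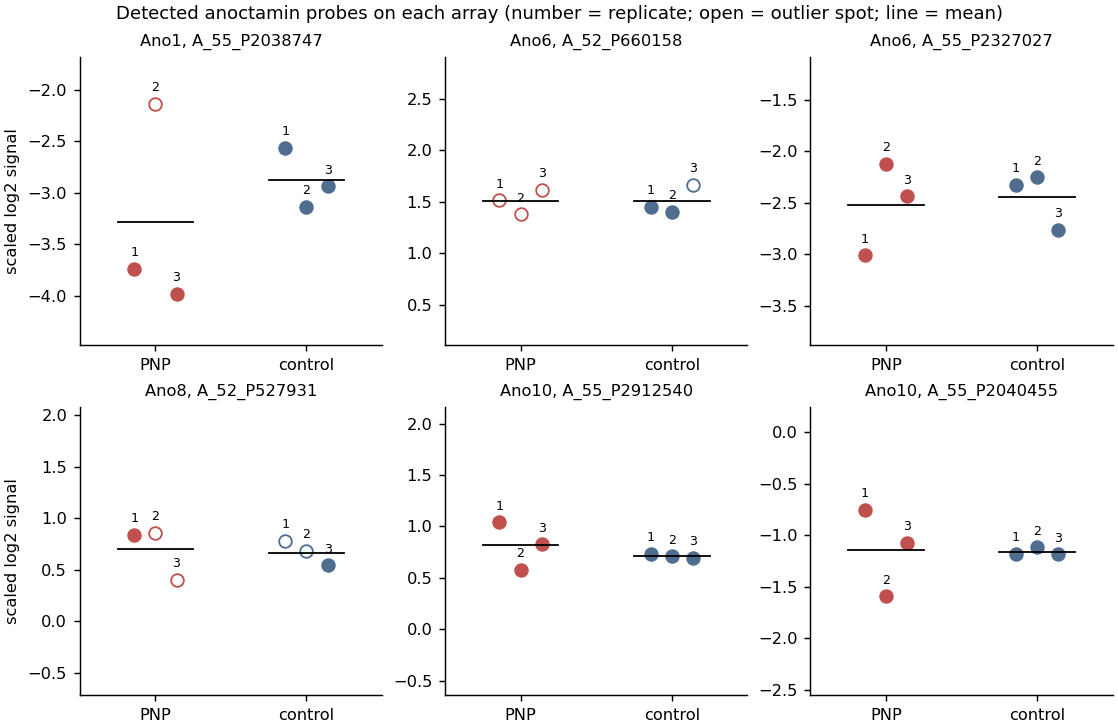
Scaled log2 signal of the 6 detected anoctamin probes on each array, PNP left of control, each panel spanning 2.8 log2 units about its own mean. Numbers are replicates, open points are spots marked as outliers and lines are means over all 3 arrays. Ano1 on PNP replicate 2 stands above the controls and on PNP replicates 1 and 3 below them, while the other 5 panels overlap.

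Ano1, the calcium-activated chloride channel of secretory epithelia, smooth muscle and the pacemaker cells of the gut, was measured by a single probe. Its scaled log2 signals were -3.73, -2.14 and -3.98 on PNP replicates 1, 2 and 3, against -2.56, -3.14 and -2.94 on control replicates 1, 2 and 3. With the marked spot left out the PNP mean was -3.86 ± 0.17 (SD, n = 2) and the control mean -2.88 ± 0.29 (SD, n = 3). The difference of these means was -0.98 on the log2 scale, or 1.97-fold lower with PNP. The PNP values then lay wholly below the control values, as they did for 3.75% of all genes in that fit. That share includes genes with 3 values per group, for which full separation is harder to reach than with 2 PNP values. The share among genes with as few values as Ano1 was not counted.

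With the marked spot kept, the PNP mean was -3.28 ± 1.00 (SD, n = 3) against -2.88 ± 0.29 (SD, n = 3) in controls. The difference of the means was then -0.41 on the log2 scale, or 1.32-fold lower with PNP, and the SD of the PNP arrays exceeded it. The groups then overlapped, and PNP values lay wholly below control values for 2.94% of all genes when every marked spot was kept. The marked spot was well above background, with 1202 units and a scanner error of 99.5 units. Its median pixel gave 1012.5 units over a local background of 53.5, against median pixels of 778, 580.5 and 691 on the controls. In the authors' deposited table the Ano1 probe had log2 values of 8.64, 10.19 and 8.32 on PNP replicates 1 to 3, against 9.77, 9.25 and 9.48 on control replicates 1 to 3, so the order of the arrays was the same there. Whether the unevenness of that spot changed its signal was not tested.

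The Ano1 signals also followed the position of the array on the slide. The arrays in even slide columns were PNP replicates 1 and 3, with -3.73 and -3.98, and control replicate 2, with -3.14. The arrays in odd columns were PNP replicate 2, with -2.14, and control replicates 1 and 3, with -2.56 and -2.94. Every even-column array lay below every odd-column array, as it did for 7.72% of all genes with marked spots kept. In a fit with treatment and column parity together and marked spots kept, even columns stood at -1.05 relative to odd ones, against a median of -0.0065 over all genes. The PNP difference in the same fit was -0.05. Within even columns PNP minus control was -0.72 (2 PNP arrays and 1 control array), and within odd columns it was 0.61 (1 PNP array and 2 control arrays, resting on the marked spot). With the marked spot left out, the fit with column parity gave -0.72. The part of slide position in the Ano1 difference was not tested beyond these values.

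**Figure D3:**
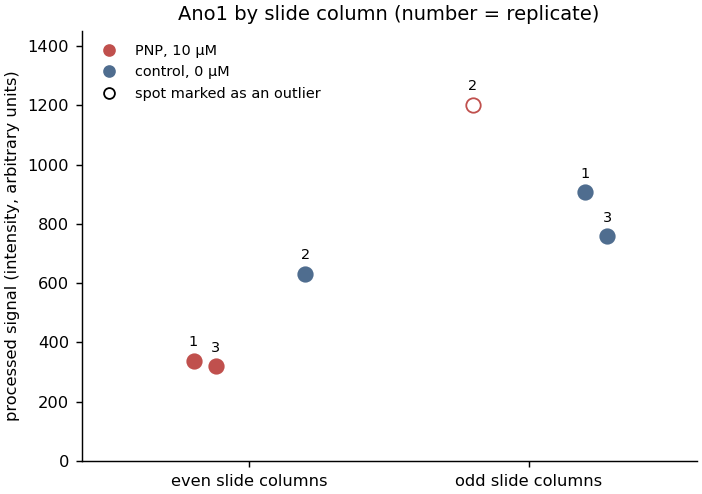
Processed signal of the Ano1 probe in arbitrary units by slide column, PNP left of control within each column class, with numbers for replicates and an open point for the spot marked as an outlier. The 3 even-column arrays lie between 319 and 631 units and the 3 odd-column arrays between 758 and 1202 units.

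The genes whose values ran most like Ano1 over the 6 arrays, with marked spots kept, were Npff, the neuropeptide FF precursor, Slc38a4, an amino acid transporter, and Xrcc1, a scaffold of DNA single-strand break repair. Their Pearson correlations with Ano1 were 0.998, 0.995 and 0.994 over 6 arrays, which share a slide and its columns. Of 13592 genes compared, 112 had a correlation above 0.95, so the 3 are the top of a long list. Slc38a4 had -2.74, -1.81 and -2.83 on PNP replicates 1 to 3, against -2.13, -2.37 and -2.24 on control replicates 1 to 3, so PNP replicate 2 was its highest array as for Ano1. A correlation does not measure the size of a change. Npff ran only from -2.83 to -2.40 and Xrcc1 only from 0.97 to 1.29, against -3.98 to -2.14 for Ano1.

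Ano6, the calcium-activated scramblase whose loss causes the human bleeding disorder Scott syndrome, had probes A_55_P2327027 and A_52_P660158. On A_55_P2327027 the scaled log2 signals were -3.01, -2.12 and -2.44 on PNP replicates 1 to 3, against -2.33, -2.25 and -2.77 on control replicates 1 to 3. The PNP range thus enclosed the control range, with PNP replicate 1 lowest. The PNP mean was -2.52 ± 0.45 (SD, n = 3) and the control mean -2.45 ± 0.28 (SD, n = 3), a log2 difference of -0.08 (SE 0.23, 95% interval -0.60 to 0.45). Within even columns PNP minus control was -0.47 and within odd columns 0.42, the signs seen for Ano1.

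On A_52_P660158 all 3 PNP spots and 1 control spot were marked as outliers, so the probe left the fit. With those spots kept, its signals were 1.52, 1.38 and 1.62 on PNP replicates 1 to 3, against 1.45, 1.40 and 1.67 on control replicates 1 to 3. The means were 1.50 ± 0.12 with PNP and 1.51 ± 0.14 in controls (SD, n = 3 each), and the log2 difference was -0.0043 (SE 0.12, 95% interval -0.28 to 0.27). The arrays differed less on this probe than on A_55_P2327027, and neither probe separated the groups. Within even columns PNP minus control was 0.16 and within odd columns -0.18, the reverse of the signs on A_55_P2327027.

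Ano8, which tethers the endoplasmic reticulum to the plasma membrane, had 4 of its 6 spots marked and was not in the fit. With them kept, its scaled log2 signals were 0.84, 0.86 and 0.40 on PNP replicates 1 to 3, against 0.78, 0.68 and 0.54 on control replicates 1 to 3. PNP replicates 1 and 2 lay just above every control and PNP replicate 3 below every control. The log2 difference was 0.03 (SE 0.14, 95% interval -0.29 to 0.36), whose bounds are up to 1.29-fold higher or 1.23-fold lower signal with PNP.

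Ano10, an internal-membrane member mutated in a human recessive ataxia, had 3 probes, of which A_55_P2912540 and A_55_P2040455 were detected on all arrays. On A_55_P2912540 the scaled log2 signals were 1.04, 0.58 and 0.83 on PNP replicates 1 to 3, against 0.73, 0.71 and 0.69 on control replicates 1 to 3. On A_55_P2040455 they were -0.75, -1.59 and -1.08 on PNP replicates 1 to 3, against -1.18, -1.12 and -1.18 on control replicates 1 to 3. On both probes PNP replicates 1 and 3 lay above every control and PNP replicate 2 below every control, so the groups overlapped in the same way. The SD was 0.23 with PNP against 0.019 in controls on the first probe, and 0.42 against 0.037 on the second (n = 3 each). By slide column, PNP minus control was 0.22 and 0.20 on the 2 probes within even columns and -0.13 and -0.41 within odd columns. Control replicate 2, in an even column, lay beside the other controls on both.

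The log2 difference of Ano10 was 0.10 (SE 0.13, 95% interval -0.19 to 0.39) on A_55_P2912540 and 0.02 (SE 0.20, 95% interval -0.43 to 0.47) on A_55_P2040455. The other probe, A_55_P2934399, was well above background on PNP replicate 3 and control replicate 2 alone, with 206 and 131 units.

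**Figure D4:**
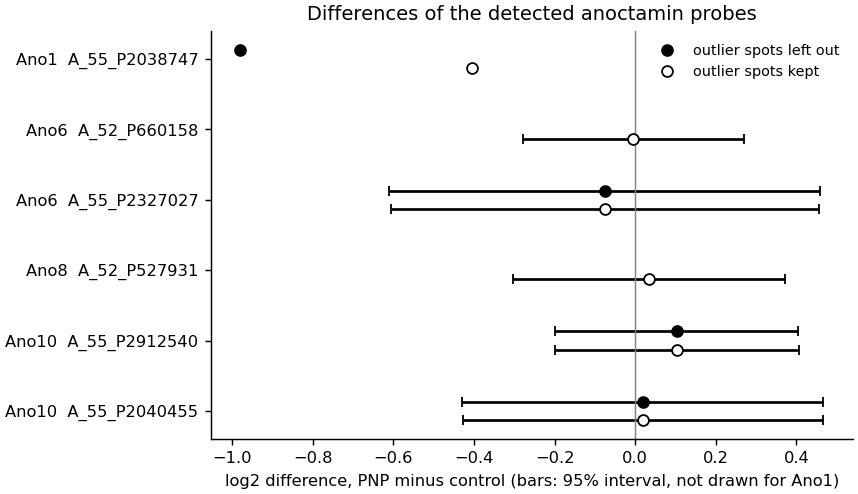
Log2 difference, PNP minus control, of the 6 detected anoctamin probes, with marked spots left out (filled) or kept (open); bars are 95% intervals of the fit over all probes and are not drawn for Ano1, whose difference chose the family. Ano1 stands at -0.98 without its marked spot and at -0.41 with it, and the intervals of the other 5 probes span 0.

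Beside Ano1, Ano6 and Ano10 were in the fit over 13138 genes, and 0 of these 2 had an adjusted p below 0.05 with limma, the share over all genes being 0%. Of all genes, 856 had an unadjusted p below 0.05. The intervals of Ano6 and Ano10 in this fit, and of Ano8 with marked spots kept, lay within a 2-fold change either way. So did those of 12866 of the 13138 genes in the fit for Ano6 and Ano10. With slide row as a block the Ano6 interval reached past 2-fold lower, where PNP replicate 1 alone stands against the controls.

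The nearest relatives of the anoctamins are the TMEM63 proteins, osmosensitive cation channels, and the TMC proteins, of which TMC1 and TMC2 belong to the hair cell's mechanotransduction channel. Of 11 such genes 8 were measured and 0 passed the test in either direction. All 8 had a positive difference, with a median of 0.26 against 0.04 over all genes. Over the 4380 dimmest genes, where 4 of the 8 relatives lay, the median was 0.08 and 63.4% were positive. Positive shares were 71.5% over the 4379 brightest genes and 53.9% over the 4379 of middle brightness, with medians of 0.05 and 0.01. The median of the relatives was above that of all genes under all 17 alternatives tried, by 0.11 to 0.22. Every measured relative was positive in 16 of the 17, though these alternatives all draw on the same arrays. Tmem63c had -3.60, -3.49 and -3.46 with PNP, against -3.69, -3.87 and -3.99 in controls, a difference of 0.33 (SE 0.11, limma adjusted p = 0.740). Tmc8, known from human EVER2 and skin papillomavirus control, had -4.84, -4.50 and -4.80 with PNP, against -4.93, -4.98 and -5.29 in controls, a difference of 0.36 (SE 0.14, limma adjusted p = 0.740). Both were picked for the smallest p in this list, and neither was called.

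Chloride and anion channels of other families had 21 of 33 genes measured, 10 with a positive and 11 with a negative difference, a median of -0.03 and 0 calls. Lrrc8b and Lrrc8c, subunits of the volume-regulated anion channel, differed by 0.31 (SE 0.14) and -0.20 (SE 0.10). The phospholipid scramblases and flippases outside the family had 17 of 29 measured, 14 positive and 3 negative, a median of 0.05 and 0 calls; with arrays scaled on their median 8 of the 17 were positive, and without PNP replicate 1 only 6 were. Tmem30b, a partner subunit of lipid flippases, had -5.00, -5.17 and -4.62 with PNP, against -5.39, -5.84 and -5.57 in controls. It was well above background on 3 PNP arrays and 0 control arrays, so it entered the fit through the PNP arrays alone. Its values are given with no test, though the counts and median of the list include Tmem30b. Xkr4, a scramblase of the XK family, differed by 0.50 (SE 0.21).

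Calcium release and entry genes, which set the calcium that opens ANO1, had 15 of 29 measured, 9 positive and 6 negative, with a median of 0.10 and 0 calls. Orai3, a store-operated calcium channel subunit, differed by 0.18 (SE 0.09) and the cation channel Trpc6 by 0.22 (SE 0.11). Cation-chloride cotransporters, which set the chloride gradient, had 8 of 9 measured, 3 positive and 5 negative, with a median of -0.02 and 0 calls. Slc12a3, the thiazide-sensitive sodium-chloride cotransporter, differed by 0.48 (SE 0.20) and Slc12a5, a potassium-chloride cotransporter of neurons, by -0.21 (SE 0.10). For the other 9 genes named from the 5 lists, limma's adjusted p ran from 0.740 to 0.812.

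The labelled cell type was read from 7 Leydig cell genes with a probe. Star and Nr5a1 were above background on all arrays and Cyp17a1 on 2 PNP and 3 control arrays, while Cyp11a1, Lhcgr and Hsd3b6 were above background on 0 arrays and Hsd3b1 on at most 1 control array, so these defining steroidogenic markers were not detected. With detection meaning all 3 arrays of a group, smooth muscle and peritubular markers were detected for 6 of 6 genes, Sertoli markers for 5 of 8, germ cell markers for 6 of 8, macrophage markers for 4 of 6, epithelial markers for 3 of 5 and endothelial markers for 0 of 4. Over the whole array 64.1% of named genes were detected in this sense. The Sertoli, germ cell, macrophage and epithelial counts were not far from that share, so these counts alone do not show a cell type. Among the epithelial genes Krt8, Krt18 and Krt19 were above background on all arrays, while Epcam and Cdh1, which define epithelial cells, were on 0. The macrophage genes Adgre1 and Ptprc and the Sertoli genes Amh, Fshr and Gata1 were also above background on 0 arrays. Of the germ cell genes, Prm1 was above background on 0 arrays and Dazl on 1 PNP array. The 6 smooth muscle genes had differences from 0.07 to 0.19. Measured epithelial genes ran from -0.41 to 0.0055, macrophage genes from -0.58 to 0.32 and germ cell genes from -0.67 to 0.27. Sertoli genes ran from -0.11 to 0.24 and Leydig genes from -0.33 to 0.22. The part of any of these cell type markers in the Ano1 values was not tested.

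**Figure D5:**
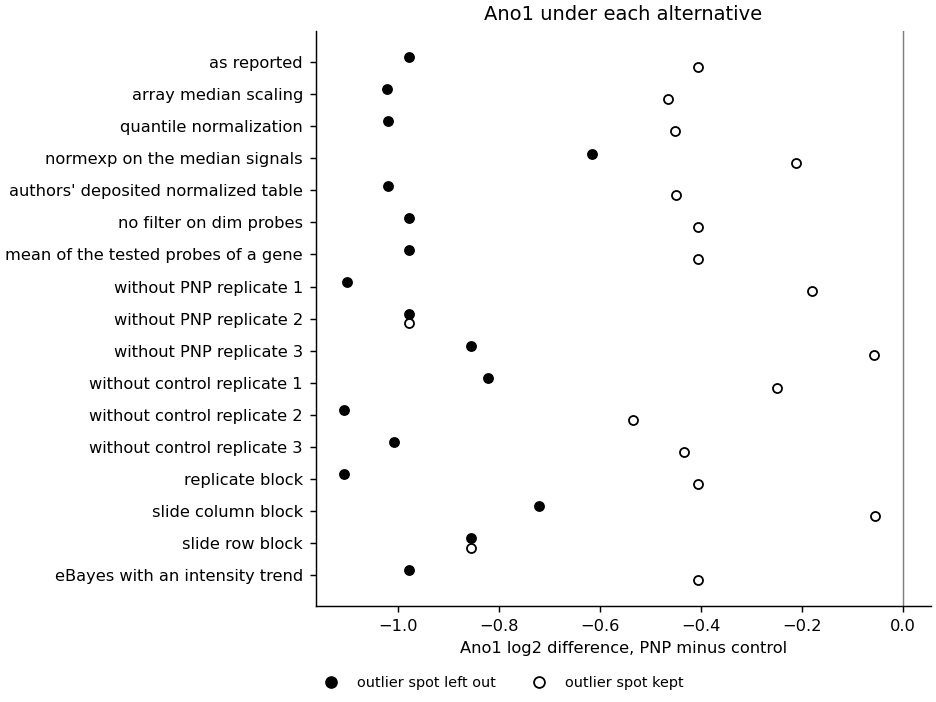
Log2 difference of Ano1, PNP minus control, under each alternative processing, with the marked spot left out (filled) or kept (open). The values run from -1.11 to -0.62 with the spot left out and from -0.98 to -0.05 with it kept, and the value without PNP replicate 2 is -0.98 in both.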

How the data were processed

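Total RNA of 6 TM3 samples, 3 at 10 µM PNP and 3 at 0 µM for 24 h, was amplified and hybridised to 1-channel Agilent arrays, per the labels. The deposited scanner files give intensity values from Agilent Feature Extraction 11.5.1.1, per the file headers, while the submitters' processing notes name 10.7. Per the file headers the processed signal is corrected for background and trends within the array and not scaled between arrays. Dim spots sit at a floor, so differences below it cannot be seen. On the scaled log2 signal a floor spot tends towards a positive difference, since a lower 75th percentile was subtracted on every PNP array. Ano3, at the floor on all arrays, had means of -7.63 with PNP and -7.81 in controls. With no filter on dim probes the median difference over all genes was 0.10, against 0.04 in the main fit. Flags for detection and outlier spots, called other values here, are the deposited ones. The normalized table deposited by the authors is in log2 units, and its columns share 1 distribution and have a median of 8.27; each column followed its own array's log2 signal (r from 0.9996 to 1), so it is uncentred and runs the same way as the scanner signal. Its normalization method: not given in the sources used here.

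Probes were named through unversioned accessions in RefSeq's GRCm38.p6 gene list. Processed signals were put on a log2 scale, each array's 75th percentile was subtracted, and the values were fitted with limma 3.58.1 in R 4.3.3, PNP minus control, with no covariates. Outlier spots were left out. A probe entered if well above background on all 3 arrays of a group with at least 2 values per group, and a gene was its brightest such probe. Benjamini-Hochberg adjustment ran over 13138 genes at 0.05, and 6114 probes above background were left out for outlier spots. The same fit over all probes gave the values of single probes. With 6 arrays, precision is limited, and the 95% interval reached a median of 0.28 to either side. The fit was tested on simulated data. The genes named are the 10 anoctamins, the 2 of smallest p in each related list and the 3 that run most like Ano1. Cell type markers are named from their lists, and Clca2 was named after its values were seen. The members and lists were chosen with earlier results of these data known. Alternatives covered scaling, background, outlier spots, filters, left-out arrays and blocks, and running them with outlier spots kept was chosen after seeing the data.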

Additional observations from a re-analysis of the deposited data

Results flagged for a closer look

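Several anoctamin spots on PNP arrays stood outside the fit over all genes, yet were well above background and, on the scaled log2 signal, higher than every control. The Ano1 spot of PNP replicate 2 had 1202 units against a highest control of 908 and was left out as an outlier. The Ano5 spot of probe A_55_P2369981 on PNP replicate 2 had 232 units against a highest control of 26.5, in a probe not detected on the other arrays. Ano8 spots had 8064 units on PNP replicate 1 and 9570.2 units on PNP replicate 2, against a highest control of 9189, and exceeded it only after scaling for PNP replicate 1 (0.84 against 0.78). The Ano10 spot of probe A_55_P2934399 on PNP replicate 3 had 206 units against a highest control of 131. Control spots outside the fit also exceeded every PNP array. The Ano7 spot of probe A_66_P126397 on control replicate 2 had 157 units against a highest PNP of 52.7. On the scaled log2 signal the Ano6 spot of probe A_52_P660158 on control replicate 3 had 1.67 against a highest PNP of 1.62. Groups of 3 samples were too small for a check on samples far from their group.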

How the results depend on the processing

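The count of genes past the threshold was 0, and also 0 under every scaling, background, filter, outlier and probe alternative, with the replicate block and with slide row as a block. It was 1 with slide column as a block and 1 with an intensity trend. Leaving out 1 array gave from 0 to 23 genes: 23 without PNP replicate 1, 1 without PNP replicate 2, 0 without PNP replicate 3, and 4, 7 and 6 without control replicates 1, 2 and 3. Each of these fits covered more genes than the 13138 of the main fit, up to 13682 without PNP replicate 1. Clca2, not in the main fit and without the detection mark on any control, was among the 23. The part of the wider gene set in these counts was not tested. Neither Ano6 nor Ano10 was past the threshold under any alternative. An unadjusted p below 0.05 was reached by 856 genes, and by from 358 to 1809 under the alternatives.

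The Ano1 difference of -0.98 was -0.41 with outlier spots kept, -0.62 after normexp, -0.72 with slide column as a block and -0.86 with slide row as a block, and from -1.11 to -0.82 when 1 array was left out. With outlier spots kept it ran from -0.98 without PNP replicate 2 to -0.06 without PNP replicate 3, and was -0.05 with slide column as a block. The sign changed in 2 of 17 alternatives for Ano6, 1 of 17 for Ano10 and 4 of 16 for Ano8, and the slide row block moved Ano6 to -0.56 and Ano10 to 0.33, where PNP replicate 1 alone stands against the controls. The causes were not tested. The scanner files used here hold no mean signal, so normexp was run on median signals. Detection of 4 genes became 3 when outlier spots were left out.

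The labels number replicates 1 to 3 in both groups. The deviations of same-numbered arrays had correlations of -0.31, -0.22 and -0.03 over 11110 genes. Each such pair joins an odd with an even slide column, so these values cannot show whether the numbers pair the arrays. With the replicate block, 0 genes passed and 599 had an unadjusted p below 0.05, and Ano1 stood at -1.11.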

Other observations

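Clca2, named for calcium-activated chloride conductance and read here with the other anion channels, was not in the fit over all genes. Its probe had 140 and 138 units on PNP replicates 2 and 3, well above background, and 23.1 units on PNP replicate 1, against 24.6, 25.7 and 24.2 units on control replicates 1, 2 and 3, all without the mark. PNP replicates 2 and 3 are the only arrays in the second row of the slide, and in the first row PNP replicate 1 was as dim as the controls. The part of slide row was not tested. Clca2 was chosen for mention after its values were seen, and no p is given. It passed the threshold in the fit without PNP replicate 1, which leaves out its 1 dim PNP array.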
